A study of Rattus norvegicus with 8 samples.

Results

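The genes described here are Gap43, Vgf, Calcb, C1ql1, Tuba1a, Tubb2b and Ccnd1, 7 of the 32623 genes counted in single cells of the rat spinal cord. They were picked by name because they led the oligodendrocyte precursor cells of these same data, so their high level in those cells is a description and was not tested. The tissue came from 8-week-old female Wistar rats, 7 days after surgery on the thoracic cord. All rats had the bone over the cord removed. The sham group had nothing more, and the mild, moderate and severe groups then received a weight dropped on the exposed cord from increasing heights. Each group held 2 libraries, 8 in all, made with droplet 3′ chemistry in which each captured transcript gives 1 unique molecular identifier (UMI), whatever the length of the gene. By number, the 8 cords sequenced give 1 for each library, so each p-value between injury groups is set against the spread between cords. The later comparison of cycling with non-cycling cells was made within libraries, and its p-values leave out the differences in level between cords.

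Oligodendrocyte precursor cells (OPCs) are the dividing glial progenitors that renew oligodendrocytes, the myelin-forming cells, and they multiply and gather around a lesion of the cord. The 7 genes have different jobs. Gap43 is a membrane protein of growing axon tips. Vgf is a nerve growth factor-inducible granin, a secreted protein cut into peptides, and Calcb encodes the beta form of calcitonin gene-related peptide (CGRP). C1ql1 is a secreted C1q-like protein that binds the adhesion receptor Adgrb3 and is known from climbing fibre synapses. Tuba1a and Tubb2b are the alpha and beta tubulins of young neurons, and cyclin D1 (Ccnd1) drives the passage from G1 into DNA synthesis.

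Cells were named from marker genes. A cell counted as an OPC when the OPC markers gave its highest score, 1.5 times or more the next, with 3 or more of them detected. This left 3057 OPCs among 55455 cells, or 5.51%, with 53 and 70 in the sham libraries, 302 and 763 in mild, 710 and 849 in moderate, and 66 and 244 in severe. Another 503 cells fell just outside the limit, with OPC as the best score but a ratio between 1 and 1.5, and 629 of the accepted cells had a ratio between 1.5 and 2. The label held against markers that were not used for naming: 10 of 12 were highest in these cells, among them Cspg5, Vcan and Cacng4, while Matn4 was higher in oligodendrocytes and Emid1 in Schwann cells. Of the 9 naming markers found in the files, 8 were detected, Neu4 was at 0 in these cells, and 5 had their highest mean here. Pdgfra was level with fibroblasts (175 CPM, counts per 1000000 UMIs, against 177) and Sox10 with Schwann cells (293 against 295), while Cspg4, which pericytes also express, was at 82.3 CPM here and 311 in pericytes and smooth muscle.

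The libraries differed in more than injury. In sham replicate 1, 51.5% of the cells were neutrophils and 6.01% macrophages or microglia. In sham replicate 2, the same shares were 0.0428% and 89.6%. The total per library ranged from 31482153 to 131045446 UMIs, and the median OPC held 5272 UMIs in sham replicate 1 and 23002.5 in severe replicate 2. Between libraries, 555 cell barcodes were shared. Markers of other cells were present inside the OPC gate of sham replicate 1: the median cell held 30.7 neutrophil marker UMIs per 10000 and 22.5 fibroblast marker UMIs per 10000. All 12 neutrophil and all 8 fibroblast markers were detected in the gate. The median was 0 neutrophil marker UMIs in sham replicate 2 and in all 6 injured libraries, where the fibroblast marker median was at most 1.16. The OPC markers themselves ran from 49.6 to 90.7 UMIs per 10000 in the sham libraries and from 18.0 to 35.6 in the injured ones. All 12 oligodendrocyte markers were detected in the gate, at 2.13 to 10.9 UMIs per 10000 in sham and 0.538 to 4.98 in injured libraries. All 12 macrophage and microglia markers were detected too, at 1.25 to 1.93 in sham and 0.566 to 4.09 in injured libraries. Of 11 astrocyte markers, 10 were detected, Ntsr2 being at 0, at 5.26 to 9.61 in sham and 2.05 to 6.25 in injured libraries. The part of these markers in the results was not tested. Where sham replicate 1 decided a result, the difference without that library is given for many results but not for all.

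Of the 7 genes, 5 had their highest mean level in OPCs, among the types with enough cells for a level. The UMIs of all cells of 1 type and 1 library were summed and scaled to counts per 1000000 UMIs (CPM), wherever 20 or more such cells were present. C1ql1 averaged 696 ± 367 CPM in OPCs (SD, n = 8 libraries) and 46.1 ± 28.7 in the next type, astrocytes, which had only 2 usable libraries, both moderate. In these 2 libraries C1ql1 stood at 66.4 and 25.8 CPM in astrocytes and at 300.2 and 373 in OPCs. In oligodendrocytes it averaged 9.39 ± 7.86 CPM (SD, n = 8), and in endothelial cells 0.210 ± 0.420 (SD, n = 4). The C1ql1 range in OPCs, 300.2 to 1265 CPM, overlapped that of no other named type. Calcb averaged 659 ± 263 CPM (SD, n = 8) in OPCs, 49.5 ± 57.9 in astrocytes and 34.7 ± 40.3 in oligodendrocytes. The astrocyte and oligodendrocyte values of Calcb did not differ beyond their spread.

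Vgf averaged 1077 ± 529 CPM (SD, n = 8) in OPCs, 486 ± 75.4 in astrocytes (SD, n = 2) and 94.0 ± 70.4 in oligodendrocytes (SD, n = 8). Its lowest OPC library, at 545.5 CPM, lay just above the higher astrocyte library, at 539.4 CPM. Ccnd1 averaged 1620 ± 567 CPM (SD, n = 8) in OPCs, 461 in the single usable library of dendritic cells, 296 ± 117 in astrocytes and 126 ± 66.7 in macrophages and microglia. Tubb2b averaged 1077 ± 243 CPM (SD, n = 8) in OPCs, 780 ± 177 in astrocytes and 633 ± 374 in oligodendrocytes, and the OPC range overlapped both of these neighbours.

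Gap43 and Tuba1a did not have their highest mean level in OPCs. Gap43 stood at 878 and 2000 CPM in the astrocytes of the moderate libraries, which held 42 and 32 such cells. In OPCs of the same libraries it stood at 942 and 1052 CPM, so astrocytes were lower in replicate 1 and higher in replicate 2. Over all libraries Gap43 averaged 728 ± 229 CPM (SD, n = 8) in OPCs. The ranges overlapped. Outside these types Gap43 was low, at 38.8 ± 25.4 CPM in fibroblasts (SD, n = 7) and 22.4 ± 25.9 in oligodendrocytes (SD, n = 8). Tuba1a averaged 4546 ± 1716 CPM in oligodendrocytes and 4046 ± 1032 in OPCs (SD, n = 8 for each), which did not differ beyond their spread. It was also counted outside neural cells, with 1148 ± 388 CPM in fibroblasts (SD, n = 7) and 173 ± 55.1 in macrophages and microglia (SD, n = 8). The reads of tubulin paralogs can be hard to tell apart, so the split between Tuba1a, Tuba1b and Tuba1c and between Tubb2a and Tubb2b is uncertain.

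**Figure D1:**
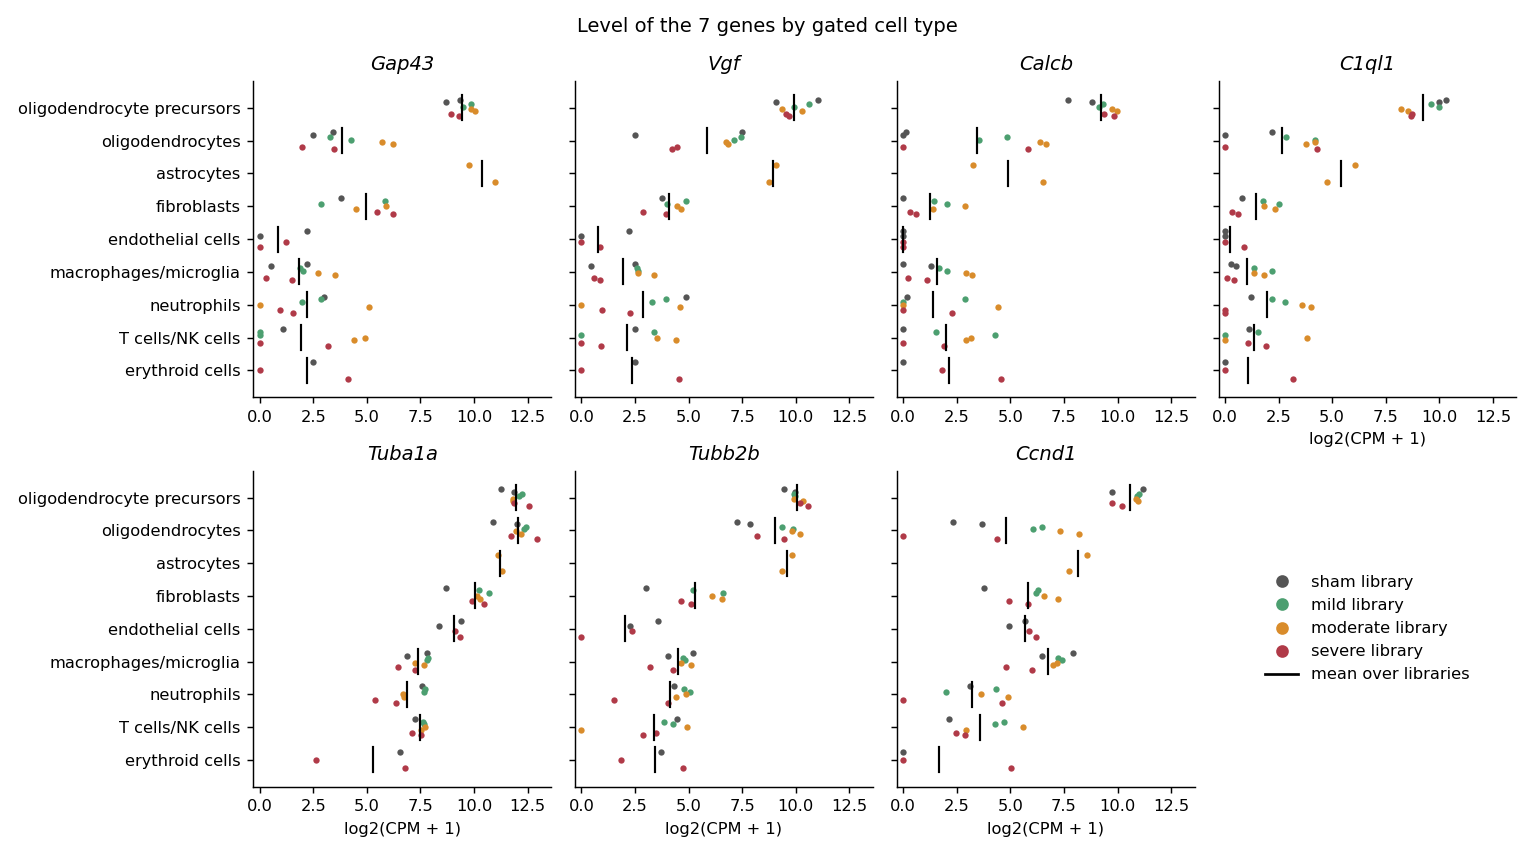
Level of each gene by gated cell type, as log2(CPM + 1) on the horizontal axis, with 1 point per library coloured by group and a black line at the mean over libraries of that log value. OPCs hold the highest mean CPM for Vgf, Calcb, C1ql1, Tubb2b and Ccnd1, while astrocytes (2 libraries) lead for Gap43 and oligodendrocytes for Tuba1a.

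Because OPCs are few, the share of a gene's molecules that they carry gives a second view. OPCs held 79.8% of all C1ql1 UMIs in the kept cells, 65.9% of those of Vgf, 62.3% of Gap43, 60.4% of Calcb, 50.2% of Ccnd1, 43.4% of Tubb2b and 29.5% of Tuba1a. All 7 shares lay above the 5.51% of cells that were OPCs, which follows from picking genes that led OPCs. The 5.51% is a share of cells, not of UMIs. Schwann cells, 0.128% of cells, held 1.85% of Calcb UMIs, or 941 UMIs in 71 cells. Cells left without a name carried much of the rest for Calcb: they averaged 513 ± 370 CPM (SD, n = 8), with the lowest value, 0.624, in sham replicate 1 and the highest, 1042, in moderate replicate 2, and their range overlapped that of OPCs.

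Cell by cell, the genes were common in OPCs, and Gap43, Vgf, Calcb and C1ql1 were rare in blood cells. After each cell was thinned to 1000 UMIs, Tuba1a had a UMI in 94.2% of 3053 OPCs (95% Wilson interval 93.4 to 95.01%), Ccnd1 in 70.03% (68.4 to 71.6%), Tubb2b in 66.9% (65.2 to 68.5%) and Gap43 in 50.6% (48.8 to 52.4%). Vgf had one in 42.5% (40.8 to 44.3%), C1ql1 in 39.6% (37.9 to 41.4%) and Calcb in 29.97% (28.4 to 31.6%). These intervals cover counting error only. In T cells and NK cells the share was 0.725% of 1103 cells for Gap43 and 0.363% for Vgf. It was 0.272% for Calcb and 0.0907% for C1ql1. These shares rest on 8, 4, 3 and 1 cells, too few to fix the level of free RNA, and sham replicate 2 held only 2 such cells. Tuba1a had a UMI in 14.96% of the same T cells and NK cells. Their median depth was 3063 UMIs before thinning, against 11234 in OPCs. Without thinning, 95.5% of OPCs had a UMI of Gap43, 84.4% of C1ql1, 80.4% of Vgf and 60.5% of Calcb. The median thinned OPC held UMIs of 4 of the 7 genes, and 64.5% of OPCs held 4 or more. The median was 2 in astrocytes and in Schwann cells, 1 in oligodendrocytes and 0 in macrophages and microglia. It was 4 in the 4 neurons, of which 50% held 4 or more. Among 68 Schwann cells, Calcb had a UMI in 26.5% (17.4 to 38.01%) and Ccnd1 in 41.2% (30.3 to 53.0%). The single Schwann cell library large enough for a level, sham replicate 1 with 29 cells, had no Calcb UMI, which allows up to 24.5 CPM. All 941 Calcb UMIs of Schwann cells came from the other libraries, which were too small for a level.

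**Figure D2:**
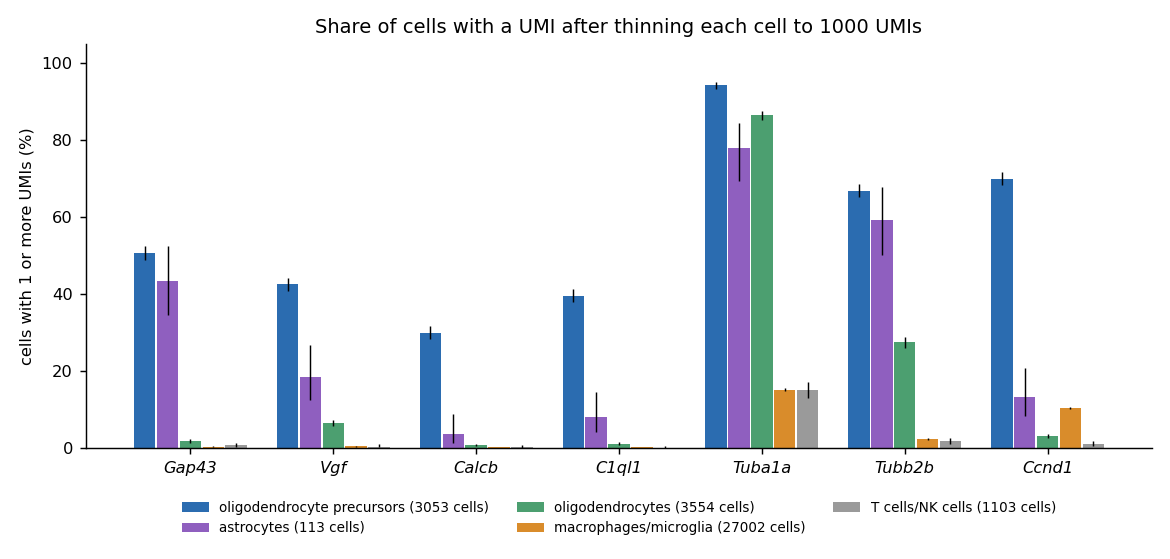
Percent of cells with 1 or more UMIs of each gene, after every cell was thinned to 1000 UMIs, in 5 cell types; bars start at 0 and the lines are 95% Wilson intervals over cells of all libraries. Tuba1a is found in 94.2% of OPCs and 14.96% of T and NK cells, while C1ql1 is found in 39.6% and 0.0907%.

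Across 61 points, each a cell type in a library, the 7 genes were set against each other. The points share libraries and depth and the genes were picked for one cell type, so the correlations are descriptions. On the log2(CPM + 1) scale Pearson's r was highest for Calcb with C1ql1, at 0.89, then for Gap43 with Vgf, at 0.88, and lowest for Calcb with Tuba1a and Tuba1a with Ccnd1, both at 0.58. Among 7605 genes with 10 CPM or more in OPCs, the gene most like Calcb was Calca (r = 0.94), which encodes the alpha form of CGRP and whose sequence is close enough to Calcb that reads could be split between them. C1ql1 was most like Plpp4 (0.94), Atcay (0.94) and Stk32a (0.93), and Plpp4 was also second for Calcb (0.91). The nearest to Gap43 was Wnt7b (0.91), a secreted Wnt ligand, and the nearest to Vgf was Gng3 (0.90), a G protein gamma subunit. Tuba1a ran closest to Cfl2 (0.95), an actin-severing cofilin, Tubb2b to Wasf1 (0.90) and then to the progenitor factor Sox2 (0.89), and Ccnd1 to Ppp1r14b (0.83).

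Promoter sequence was at hand in RefSeq (GRCr8) for 3 of the 7 genes, Vgf, Tuba1a and Tubb2b. The 250 bases before the annotated start are shown 5′ to 3′ on the strand of the gene, because Vgf carries a complete cAMP response element (CRE), the site through which many activity-induced genes are switched on, and the tubulins do not. Capitals mark the CRE core ACGTCA and the TATA box TATAAA, each searched on both strands, where overlapping matches are joined. The Vgf window is chr12:25277021-25277270 on the minus strand, that of Tuba1a is chr7:131995820-131996069 on the minus strand, and that of Tubb2b is chr17:30952836-30953085 on the plus strand.
Vgf: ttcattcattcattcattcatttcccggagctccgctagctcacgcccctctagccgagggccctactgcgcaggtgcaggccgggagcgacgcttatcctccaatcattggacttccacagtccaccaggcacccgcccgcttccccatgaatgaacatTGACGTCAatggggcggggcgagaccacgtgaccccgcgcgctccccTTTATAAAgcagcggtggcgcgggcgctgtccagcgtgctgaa
Tuba1a: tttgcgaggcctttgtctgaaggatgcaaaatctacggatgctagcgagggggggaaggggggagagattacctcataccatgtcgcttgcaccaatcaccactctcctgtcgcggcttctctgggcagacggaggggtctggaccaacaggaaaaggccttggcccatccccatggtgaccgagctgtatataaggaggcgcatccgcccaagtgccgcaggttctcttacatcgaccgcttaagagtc
Tubb2b: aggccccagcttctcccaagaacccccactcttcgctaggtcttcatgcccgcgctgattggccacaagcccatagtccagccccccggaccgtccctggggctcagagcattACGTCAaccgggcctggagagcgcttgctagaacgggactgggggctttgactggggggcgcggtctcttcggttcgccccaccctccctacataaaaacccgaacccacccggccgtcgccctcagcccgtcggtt

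In Vgf the palindrome TGACGTCA lay at positions -90 to -83 from the start, and the TATA box at -41 to -36 overlapped a match on the other strand. The palindrome is found in 1.59% of 33360 rat promoter windows of the same length, the CRE core ACGTCA in 6.95% and TATAAA in 12.9%. Tubb2b held 1 CRE core, at -137 to -132, without the palindrome, and Tuba1a held neither of the marked motifs. Only these exact letters were searched, so other forms of a TATA box would be missed. The box CCAAT, on either strand, was found 2 times in Vgf and once in each tubulin window, and is found in 34.0% of windows. GC content was 61.6% in Vgf, 56.8% in Tuba1a and 65.2% in Tubb2b, against a median of 51.6% over all windows. These are matches of letters, and no binding was measured. Beside the sequences, the mean level in OPCs was 1077 CPM for Vgf, 1077 for Tubb2b and 4046 for Tuba1a.

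The injury groups were then compared within OPCs. The genes were picked because they led OPCs of all libraries together, and of the 3057 OPCs only 53 and 70 came from the sham cords, so the choice favours genes that are high in injured OPCs and a rise is not independent of it. All contrasts share the same 2 sham libraries. C1ql1 fell and Calcb rose. C1ql1, the C1q-like synaptic protein, stood at 1265 and 1023 CPM in the sham libraries, 772 and 998.9 in mild, 300.2 and 373 in moderate, and 425 and 413 in severe. All 6 injured libraries lay below both sham libraries, which was true of 13.5% of the 11601 genes tested, and the moderate and severe libraries lay below both mild ones. Against sham, the log2 fold change of C1ql1 averaged over the 3 injured groups was -1.03 ± 0.21 (SE), with an adjusted p of 0.0135 in edgeR's quasi-likelihood test with Benjamini-Hochberg adjustment. By group it was -0.30 ± 0.27 in mild (adjusted p = 0.532), -1.73 ± 0.28 in moderate (adjusted p = 0.00551) and -1.07 ± 0.28 in severe (adjusted p = 0.0309). The averaged difference of C1ql1 passed in 14 of 16 alternatives, among them the fit without sham replicate 1, and missed the threshold without mild replicate 1 (-0.94, adjusted p = 0.0677 by the edgeR test) and in non-cycling cells. The moderate call held in 15 of 16 alternatives. The severe call held in 8, and missed the threshold without sham replicate 1, either mild library, moderate replicate 2 or either severe library, with adjusted p from 0.0559 to 0.215 and a log2 difference between -1.01 and -1.07. It also missed it with a replicate block (adjusted p = 0.0584 by the edgeR test) and in non-cycling cells, where the difference shrank to -0.45 (adjusted p = 0.359).

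Calcb stood at 204 and 450.1 CPM in the sham libraries, 639 and 555 in mild, 844 and 1015 in moderate, and 652 and 909 in severe. All 6 injured libraries were above both sham libraries, as they were for 12.0% of genes tested. The averaged log2 fold change was 1.32 ± 0.34 (SE, adjusted p = 0.0307 by the edgeR test). It was 0.88 ± 0.38 in mild (adjusted p = 0.174), 1.48 ± 0.38 in moderate (adjusted p = 0.0361) and 1.59 ± 0.39 in severe (adjusted p = 0.0233). This call was less firm than that for C1ql1: without sham replicate 1, the library with 69 Calcb UMIs in its OPCs, the averaged difference was 0.83 and the adjusted p 0.152, and with a stricter OPC gate (ratio 2) it was 1.12 and 0.0782. For Calcb it also missed the threshold without mild replicate 1 (adjusted p = 0.0632 by the edgeR test) or severe replicate 2 (adjusted p = 0.0885), while without sham replicate 2 it was 2.19 and passed. In moderate Calcb passed in 7 of 16 alternatives, and leaving out sham replicate 1, either mild library, either moderate library or severe replicate 2 ended the call, as did the stricter gate, no doublet removal and non-cycling cells alone. In severe it passed in 12 of 16, and leaving out sham replicate 1 or severe replicate 2, the stricter gate and non-cycling cells alone ended it. Without sham replicate 1 the log2 difference of Calcb was 1.01 in moderate and 1.08 in severe.

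The other 5 genes did not pass the edgeR test in any injury group, though 3 of them, Gap43, Tubb2b and Tuba1a, passed under some alternatives. Gap43 stood at 650.0 and 410.3 CPM in sham, 932 and 720 in mild, 942 and 1052 in moderate, and 485 and 629 in severe, and 4 of 6 injured libraries were above both sham libraries. Its averaged log2 difference was 0.72 ± 0.26 (SE, adjusted p = 0.105 by the edgeR test), and it passed with DESeq2, with no filter on low counts or with the stricter gate, the lowest adjusted p being 0.0288. Tubb2b stood at 688 and 1002 CPM in sham, 980 and 1005 in mild, 981 and 1280 in moderate, and 1178 and 1502 in severe. Its averaged log2 difference was 0.57 ± 0.27 (adjusted p = 0.203 by the edgeR test), and 1.03 without sham replicate 2. Over all 16 alternatives it ran from 0.27 to 1.03. In severe alone Tubb2b differed by 1.02 ± 0.33 (adjusted p = 0.0630 by the edgeR test). It passed there with DESeq2 (adjusted p = 0.00785) and with no filter on low counts (adjusted p = 0.0175 in edgeR). The severe difference of Tubb2b ran from 0.66 over the alternatives to 1.49 without sham replicate 2. Tuba1a ranged from 2482 to 3784 CPM in sham and from 3595 to 6006 in injured libraries, with a log2 difference of 0.60 ± 0.32 (adjusted p = 0.258 by the edgeR test). In severe alone Tuba1a differed by 1.002 ± 0.39 (adjusted p = 0.109 by the edgeR test). It passed there with DESeq2 (adjusted p = 0.0325) and with no filter (adjusted p = 0.0244 in edgeR). The severe difference of Tuba1a ran from 0.58 over the alternatives to 1.505 without sham replicate 2. Gap43 in moderate, 0.96 ± 0.31 (adjusted p = 0.0795), passed in 4 of 16 alternatives: with DESeq2 (adjusted p = 0.0224), with no filter (adjusted p = 0.0232), with the stricter gate (adjusted p = 0.0257) and without sham replicate 1 (1.25, adjusted p = 0.0469).

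Vgf and Ccnd1 had sham libraries too far apart for a direction. Vgf was at 2080 CPM in sham replicate 1 and 545.5 in sham replicate 2, and all 6 injured libraries, from 656 to 1587 CPM, lay between them. Its averaged log2 difference of -0.22 ± 0.39 (adjusted p = 0.760 by the edgeR test) became 0.92 without sham replicate 1. Ccnd1 was at 2314 and 851 CPM in sham, and the injured libraries again lay between, from 866 in severe replicate 1 to 2020 in mild replicate 1. Its averaged log2 difference was 0.18 ± 0.32 (adjusted p = 0.764 by the edgeR test), and -0.26 without sham replicate 2, and it turned to -0.01 when counts were scaled by library size alone.

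Read against the background, 2 of the 7 genes passed in the averaged contrast, where 7.96% of 11601 genes did: Calcb among the 3.77% that rose and C1ql1 among the 4.2% that fell. None passed in mild with the main edgeR fit or DESeq2, where 5.83% of genes did with edgeR (3.22% higher and 2.6% lower). Gap43 and Calcb, 2 of the 7, had an unadjusted value under 0.05 there. Calcb passed in 2 alternatives: with no filter on low counts (log2 0.97, adjusted p = 0.0483 in edgeR) and without sham replicate 2 (log2 1.76). C1ql1 and Calcb passed in moderate, where 6.96% of genes did (3.7% higher, 3.27% lower), and in severe, where 9.67% did (5.32% higher, 4.35% lower). The split depends on the scaling: of the genes called in severe 54.99% were higher, but 22.8% with scaling by library size alone, which moved the median log2 difference of all genes from 0 to -0.37, and in the averaged contrast the share was 47.3% and 34.8%. In mild it was 55.3%, and 44.7% with DESeq2.

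**Figure D3:**
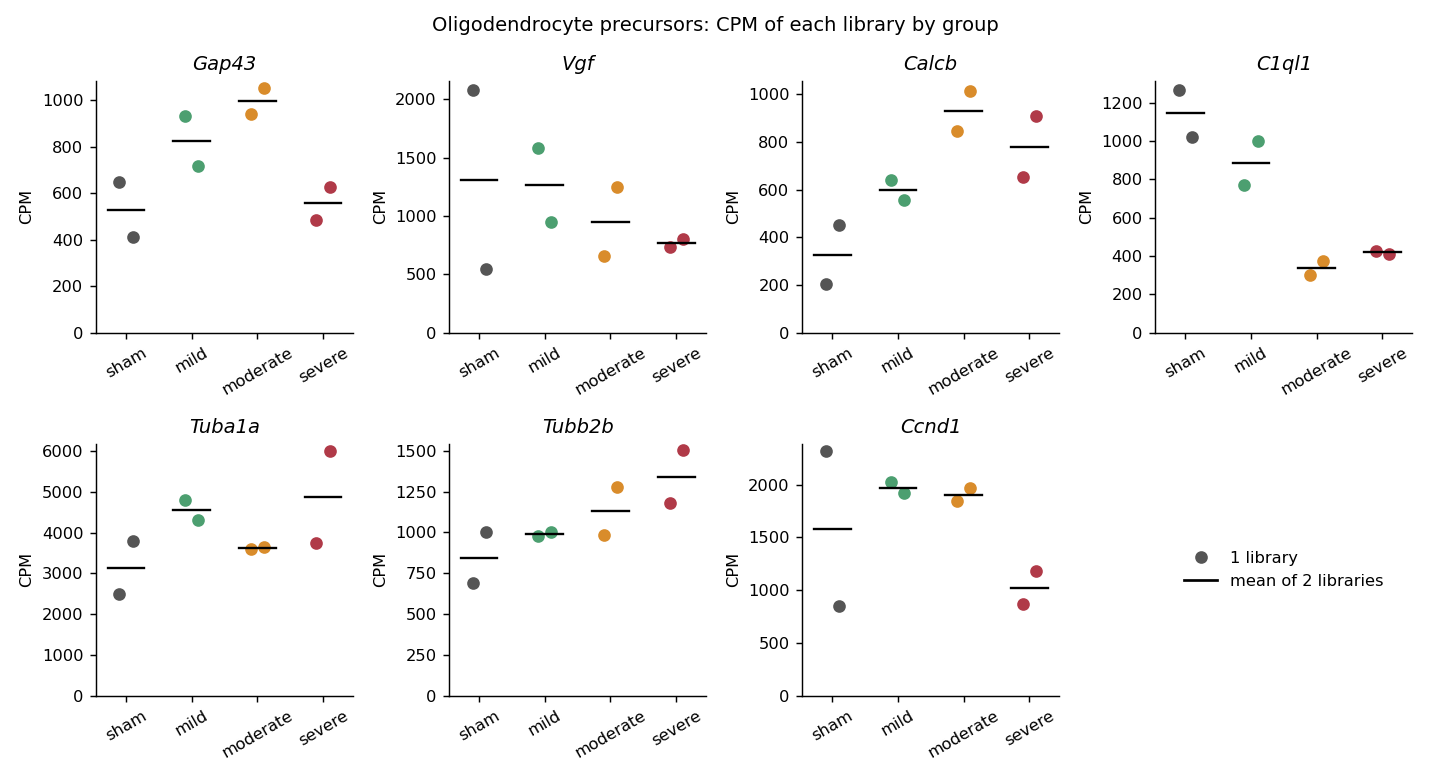
CPM of each gene in the OPCs of each library, by injury group; points are libraries, lines the mean of the 2 libraries of a group, and each vertical axis starts at 0. C1ql1 lies below both sham libraries, 1265 and 1023 CPM, in all 6 injured libraries and Calcb above both, while the sham libraries of Vgf, at 2080 and 545.5 CPM, and of Ccnd1 are far apart.

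**Figure D4:**
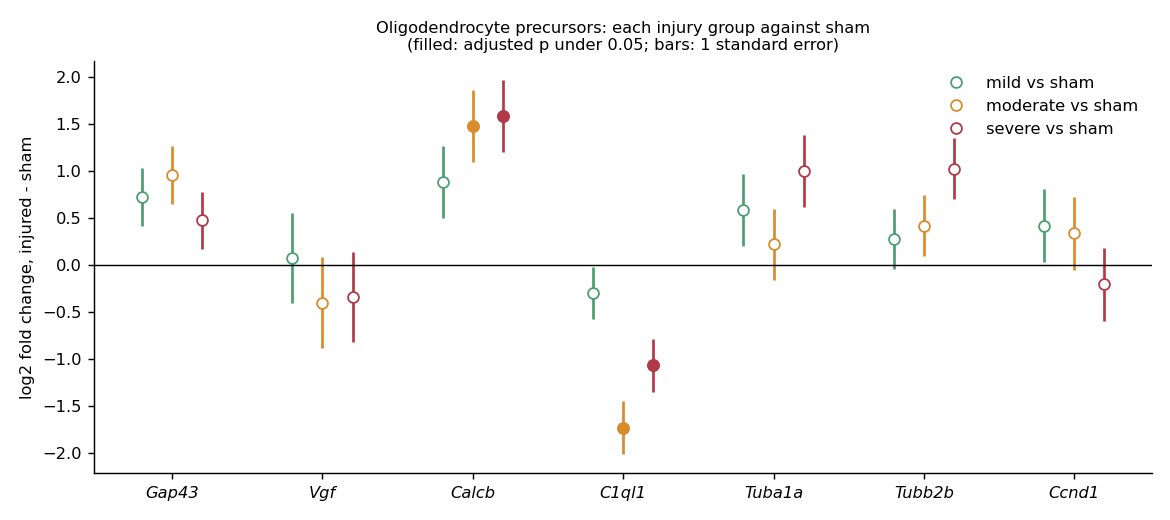
Log2 fold change of each gene in OPCs of the mild, moderate and severe groups against the shared sham libraries, with bars of 1 standard error and filled points for an adjusted p under 0.05. Filled points occur only for C1ql1, at -1.73 and -1.07, and Calcb, at 1.48 and 1.59, in the moderate and severe groups.

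The share of OPCs called cycling also differed between injured and sham cords. A cell was called cycling when 4 or more of the cell cycle markers, such as Mki67 and Top2a, had a UMI, and non-cycling at 0 or 1. Cycling cells made up 5.66% of the OPCs of sham replicate 1 (95% Wilson interval 1.94 to 15.4%) and 22.9% of sham replicate 2 (14.6 to 34.0%). In the injured libraries they made up between 43.9% (40.4 to 47.4%, mild replicate 2) and 66.0% (59.8 to 71.6%, severe replicate 2). Cycling cells also held more UMIs, with a median of 16045 against 8928 in mild replicate 1, and deeper cells show more markers. The sham OPCs were the shallowest, with medians of 5272 and 8147.5 UMIs, against 8607 to 23002.5 in the injured libraries. Cells were not thinned for this call, and the part of depth in the cycling shares was not tested.

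C1ql1 was lower in cycling than in non-cycling OPCs of the same library. It fell from 1517 to 524 CPM in mild replicate 1, from 1745 to 554 in mild replicate 2, from 551 to 202 in moderate replicate 1, from 806 to 256 in moderate replicate 2, and from 780 to 283 in severe replicate 2. The ratio stayed between 0.317 and 0.366 in all 5 libraries with enough cells of both kinds. The log2 fold change was -1.50 ± 0.05 (SE, adjusted p = 2.2e-15 in edgeR with library as a block), and C1ql1 also passed without the block (adjusted p = 0.0103), which none of the other 6 genes did. In this comparison 40.9% of 10736 genes passed, 22.1% were lower in cycling cells of all 5 libraries and 18.6% higher.

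Calcb was higher in cycling OPCs of the 5 libraries tested, all of them injured. It went from 482 to 696 CPM in mild replicate 1 and from 440 to 623 in mild replicate 2. In moderate it went from 678 to 878 in replicate 1 and from 695 to 1039 in replicate 2. The values were nearly equal, 900.2 and 905, in severe replicate 2. The log2 fold change of Calcb was 0.45 ± 0.06 (SE, adjusted p = 4.6e-06 by the blocked edgeR test). The sham libraries, with only 3 and 16 cycling OPCs, were not tested and went the other way. Calcb stood there at 0 and 257 CPM in cycling cells, where 0 allows up to 80.3, and at 166 and 489 in non-cycling ones. Vgf was higher in 4 of 5 libraries, by ratios up to 1.74 in mild replicate 1, and lower in severe replicate 2, at a ratio of 0.809. The log2 fold change of Vgf was 0.46 ± 0.09 (SE, adjusted p = 0.00034 by the blocked edgeR test).

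Gap43 and both tubulins were slightly lower in cycling cells of the injured libraries tested. Tuba1a averaged 5168 ± 942 CPM in non-cycling and 4326 ± 1101 in cycling OPCs (SD, n = 5) and was lower in all 5 libraries, with a log2 fold change of -0.21 ± 0.05 (adjusted p = 0.00116 by the blocked edgeR test). Tubb2b averaged 1296 ± 224 and 1107 ± 251 CPM (SD, n = 5), again lower in all 5, with -0.18 ± 0.05 (adjusted p = 0.00458 by the same edgeR test). Gap43 was lower in 4 of 5 libraries, with -0.22 ± 0.07 (adjusted p = 0.0143 by the same edgeR test). In the sham libraries, with only 3 and 16 cycling OPCs, Gap43 was higher in cycling than in non-cycling cells. It stood at 936 against 610 CPM in sham replicate 1 and at 432 against 388 in sham replicate 2, while both tubulins were lower there. The Tubb2b call was lost with the stricter gate (-0.12, adjusted p = 0.102). The Gap43 call was lost with DESeq2 (adjusted p = 0.0833), without moderate replicate 1 (adjusted p = 0.127) and without severe replicate 2 (adjusted p = 0.0850). Ccnd1, the G1 cyclin, did not pass: it averaged 1776 ± 209 CPM in non-cycling and 1769 ± 407 in cycling cells (SD, n = 5), with a log2 difference of 0.02 ± 0.07 (adjusted p = 0.811 by the blocked edgeR test). In all, 6 of the 7 genes passed, beside the 40.9% of all genes.

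**Figure D5:**
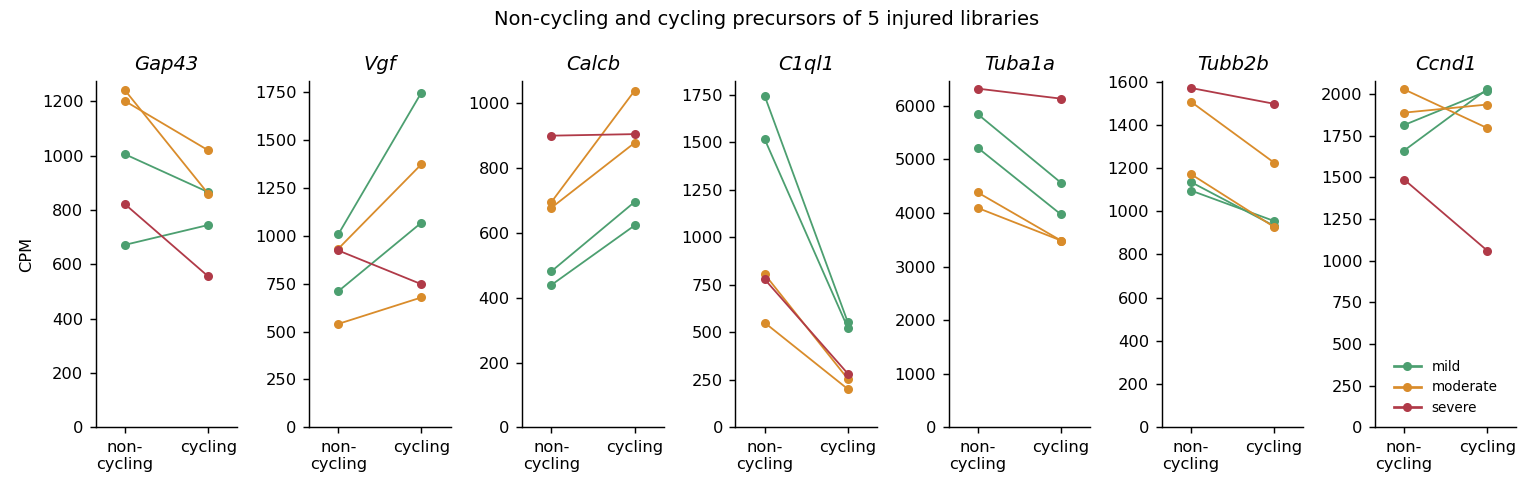
CPM of each gene in non-cycling and cycling OPCs, with a line for each of the 5 injured libraries with 20 or more cells of both kinds, coloured by group; each vertical axis starts at 0. C1ql1 falls to between 0.317 and 0.366 of its non-cycling level in every library, and Ccnd1 goes either way.

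Since the share called cycling was higher in every injured than in either sham library, the groups were also compared in non-cycling OPCs alone. That comparison was chosen after the data were seen. Non-cycling C1ql1 stood at 1364 and 1232 CPM in sham, 1517 and 1745 in mild, 551 and 806 in moderate, and 873 and 780 in severe, so both mild libraries lay above the sham libraries and the moderate and severe ones below. The averaged log2 difference was -0.40 (adjusted p = 0.352 by the edgeR test), in moderate alone -1.002 (adjusted p = 0.0915) and in severe alone -0.45 (adjusted p = 0.359). Non-cycling Calcb stood at 166 and 489 CPM in sham and from 358 to 900.2 in the injured libraries, which overlap, with an averaged log2 difference of 0.85 (adjusted p = 0.249 by the edgeR test). Each sham library gave 48 cells to this comparison and severe replicate 1 gave 16. In it 191 genes passed, against 924 with all OPCs.

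The relatives of the 7 genes were followed in the same OPCs, in lists fixed by name. Among the receptor parts for Calcb's peptide, Calcrl, which binds CGRP together with Ramp1, fell. It stood at 635 and 300.6 CPM in sham and from 54.2 to 117 in the injured libraries. The averaged log2 fold change was -2.16 ± 0.25 (SE, adjusted p = 0.00124 by the edgeR test), and the call held in all 16 alternatives, among them the fit without sham replicate 1 and that in non-cycling cells (-2.06, adjusted p = 0.00875). Of 5 genes on this list, 1 fell and 4 did not pass, Ramp1 among the latter, where 4.2% of all genes fell. In moderate, Ramp2, a partner of that receptor, also fell (-1.22 ± 0.27, adjusted p = 0.0203 by the same test), a call lost in 4 of 16 alternatives: without sham replicate 2 (adjusted p = 0.0696), without either moderate library and in non-cycling cells (adjusted p = 0.150). In cycling OPCs Ramp1, the partner that makes the receptor bind CGRP, fell from a mean of 597 to 239 CPM (log2 -1.24 ± 0.07, adjusted p = 1.4e-11 by the blocked edgeR test). The median log2 difference of the list in the averaged contrast was -0.56, and that of all genes 0.03.

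Among granins, neuropeptides and their processing genes, the relatives of Vgf, 6 of 16 tested genes fell and none rose in the averaged contrast, where 4.2% of all genes fell and 3.77% rose. Scg5, a chaperone of the prohormone convertase Pcsk2, stood at 85.7 and 34.99 CPM in sham and from 2.53 to 8.07 in injured libraries (log2 -3.48 ± 0.38, adjusted p = 0.00116 by the edgeR test), and it passed in all 16 alternatives. Without sham replicate 1, and also without severe replicate 2, each of the other 5 missed the threshold: Tac1, Chgb, Nptx2, Pcsk2 and Scg3. Without sham replicate 1 their log2 differences were -1.15, -1.88, -0.83, -0.75 and -0.27, in that order. Nptx2, a secreted pentraxin, stood at 65.0 CPM in sham replicate 1, 9.54 in sham replicate 2 and from 2.17 to 11.1 in the injured libraries. In severe, Npy rose from a sham mean of 6.14 to 61.9 CPM (log2 3.72 ± 0.58, adjusted p = 0.00408 by the edgeR test), a call lost without severe replicate 2. Its sham values were 5.91 and 6.36 CPM, where 3 UMIs would be 8.86 and 4.77 CPM. Calca, the paralog of Calcb, had a mean of 130 CPM in sham and 322 in injured OPCs, with an averaged log2 difference of 1.36 ± 0.40 (adjusted p = 0.0540 by the edgeR test), and in severe it rose (log2 1.76 ± 0.46, adjusted p = 0.0318). The severe call of Calca was lost in 5 of 16 alternatives: with library size scaling, without sham replicate 1 (1.31, adjusted p = 0.153), without either severe library and in non-cycling cells (adjusted p = 0.0634). The list median was -0.99.

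Beside Tuba1a and Tubb2b, which did not pass, 4 of 9 other alpha and beta tubulins tested rose in the averaged contrast and 5 did not pass, where 3.77% of all genes rose. Tubb4a was among the latter, at -0.59 ± 0.25 (adjusted p = 0.158 by the edgeR test). Tubb6 rose from a mean of 110 to 416 CPM (log2 1.90 ± 0.47, adjusted p = 0.0279 by the edgeR test). Tubb5 rose from 1130 to 2774 CPM, Tubb4b from 307 to 801 and Tuba1b from 650.2 to 1617, with log2 fold changes of 1.41, 1.44 and 1.37. Without sham replicate 1, without severe replicate 2, or in non-cycling cells alone, all 4 missed the threshold, Tubb6 at an adjusted p of 0.0921 without sham replicate 1 and 0.0701 in non-cycling cells (edgeR). In cycling OPCs 6 of 9 were higher and 2 lower than in non-cycling ones, where 21.0% of all genes were higher. Tuba1c was the most changed, from 21.6 to 134 CPM (log2 2.50 ± 0.16, adjusted p = 8.4e-11 by the blocked edgeR test), and Tubb4a, a tubulin of myelinating cells, went from 364 to 81.6 CPM (log2 -2.03 ± 0.13, adjusted p = 3.7e-11). Tuba1a and Tubb2b, lower in cycling cells of all 5 libraries, went the other way from Tuba1b and Tuba1c.

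Growth cone and regeneration genes, the company in which Gap43 is usually named, were mixed. Of 21 tested, 3 rose and 1 fell in the averaged contrast, where 3.77% of all genes rose and 4.2% fell. The list median was 0.38 and that of all genes 0.03. The neuropeptide Gal rose from a mean of 310 to 920 CPM (log2 1.73 ± 0.41, adjusted p = 0.0215 by the edgeR test). The injury-induced transcription factors Jun, from 689 to 1857 CPM (log2 1.45 ± 0.31, adjusted p = 0.0166), and Atf3, from 138 to 668 (log2 2.13 ± 0.57, adjusted p = 0.0385), rose as well. The adhesion molecule Ncam1 fell from 195 to 100.3 CPM (log2 -0.85 ± 0.24, adjusted p = 0.0422). All 4 calls rested on sham replicate 1. Without it the log2 differences were 1.88 for Gal, 1.23 for Jun, 1.31 for Atf3 and -0.56 for Ncam1. For Gal both sham libraries lay below all 6 injured ones (358 and 262 against 540 to 1514 CPM). The same held for Jun (606 and 771 against 878 to 3612) and Atf3 (20.7 and 254 against 279 to 1243). This order was found in 12.0% of the 11601 genes tested. Gal missed the threshold in non-cycling cells, and its call also rested on sham replicate 2 (log2 1.66 without it). Atf3 missed it in 5 of 16 alternatives and Ncam1 in 8. In moderate 5 rose (Atf3, Klf6, Jun, Sox11 and Map1b) and 1 fell (Stmn3), where 3.7% of all genes rose and 3.27% fell. Jun passed there in all 16 alternatives and Atf3 missed in 1, Klf6 in 2, Sox11 in 5, Map1b in 10 and Stmn3 in 11. The calls of Klf6, Sox11, Map1b and Stmn3 were among those lost without sham replicate 1. Their log2 differences were then 1.78, 1.58, 1.02 and -0.75. In cycling OPCs 13 of 21 were lower, beside 19.9% of all genes, and 3 higher. Stmn1, a microtubule-destabilising stathmin, rose from 853 to 2282 CPM there (log2 1.49 ± 0.05, adjusted p = 3.3e-15), while its neuronal relative Stmn4 fell from 213 to 121 CPM (log2 -0.77 ± 0.07, adjusted p = 4.0e-08 by the blocked edgeR test).

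Around C1ql1, its close relative C1ql2 was the only 1 of 3 tested genes of the C1q-like, cerebellin and receptor list to pass. In that averaged contrast 4.2% of all genes fell. C1ql2 stood at 127 and 19.1 CPM in sham and from 6.86 to 15.3 in injured libraries. Its log2 fold change was -2.59 ± 0.48 (adjusted p = 0.00785 by the edgeR test), but -0.92 without sham replicate 1. In cycling OPCs C1ql2 (log2 -0.68 ± 0.21, adjusted p = 0.0126) and C1ql3 (log2 -0.68 ± 0.12, adjusted p = 0.00015 by the blocked edgeR test) were lower, as C1ql1 was. Of all genes, 19.9% were lower in that comparison. The C1ql2 call was lost in 4 of 12 alternatives: with DESeq2, without the block and without either mild library. Without the block, those of C1ql3 (adjusted p = 0.252 in edgeR) and of Stmn4 (adjusted p = 0.207) were lost as well.

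Around Ccnd1, the G1 cyclins, their kinases and inhibitors were mostly not called with injury. In the averaged contrast 1 of 15 rose, where 3.77% of all genes did: Cdk6, from 1.59 to 13.9 CPM (adjusted p = 0.0454 by the edgeR test). Its sham values, 0 and 3.18 CPM, lay below the level of 3 UMIs in those libraries, 8.86 and 4.77 CPM. The Cdk6 call missed the threshold in 9 of 15 alternatives, among them the fit without sham replicate 1 (log2 2.15). In cycling OPCs 8 of 15 were higher and 4 lower, where 21.0% of all genes were higher and 19.9% lower. The cyclin E genes Ccne1, from 8.99 to 25.6 CPM (log2 1.60 ± 0.20, adjusted p = 1.1e-06), and Ccne2, from 5.27 to 20.9 (log2 1.93 ± 0.20, adjusted p = 1.5e-07 by the blocked edgeR test), were higher. The cell cycle inhibitor Cdkn1c (p57) went from 489 to 67.9 CPM (log2 -2.81 ± 0.08, adjusted p = 1.2e-16), and in severe it fell from a sham mean of 220 to 41.9 CPM (log2 -2.03 ± 0.32, adjusted p = 0.00370 by the edgeR test). That severe call was lost without severe replicate 2 and in non-cycling cells (-1.39, adjusted p = 0.0979).

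In macrophages and microglia, the most numerous cells, none of the 7 genes passed between injured and sham libraries with edgeR or DESeq2, where 13.1% of 13324 genes did with edgeR (6.36% higher, 6.79% lower). Only C1ql1, 1 of the 7, had an unadjusted value under 0.05 (adjusted p = 0.140 by the edgeR test). Vgf passed without sham replicate 1 (log2 3.10, adjusted p = 0.0125), and Calcb and C1ql1 with no filter on low counts. Their levels were low: C1ql1 ranged from 0.0579 to 3.60 CPM over the 8 libraries, Calcb from 0 to 8.18, Gap43 from 0.232 to 10.5 and Vgf from 0.367 to 9.46. After thinning, 0.296% of these cells had a UMI of Calcb, from 0 to 0.656% by library. The share was 0.272% in T and NK cells and 0.273% in erythroid cells, from 3 cells in each. Whether these UMIs were free RNA was not tested. Ccnd1 stood apart there, with a UMI in 10.4% of macrophages and microglia (10.1 to 10.8%) against 1.09% of T and NK cells (0.623 to 1.89%).

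In oligodendrocytes 3 of the 7 genes passed in the same contrast, Tubb2b, Ccnd1 and Calcb, where 4.35% of 9881 genes did (2.03% higher, 2.32% lower). Tubb2b stood at 151 and 235 CPM in sham and from 294 to 1184 in the injured libraries (log2 1.97 ± 0.36, adjusted p = 0.0243 by the edgeR test). Ccnd1 stood at 4.01 and 11.7 CPM in sham and, over the injured libraries, from no UMI in severe replicate 1, which allows up to 2.88 CPM, to 295 CPM in moderate replicate 2 (log2 3.65 ± 0.80, adjusted p = 0.0346 by the edgeR test). Calcb had 1 UMI in sham replicate 1 and 0 in sham replicate 2, which allows up to 6.99 CPM, and 0 to 101 CPM in the injured libraries, so no fold is given (adjusted p = 0.0290 by the edgeR test). Sham replicate 2 held only 37 oligodendrocytes. Without sham replicate 1 none of the 3 passed, with adjusted p of 0.180 for Tubb2b, 0.385 for Ccnd1 and 0.409 for Calcb, and without severe replicate 2 the difference of Ccnd1 shrank to 0.52 (adjusted p = 0.977) and Calcb did not pass. Calcb and Ccnd1 also missed the threshold without mild replicate 1 or moderate replicate 2 and with a replicate block. Ccnd1 missed it too without mild replicate 2, with DESeq2 (2.92, adjusted p = 0.218) and with no doublet removal (adjusted p = 0.0508 in edgeR). In T and NK cells Calcb reached 18.2 CPM, from 2 UMIs in 64 cells of mild replicate 2. In moderate replicate 2 it was 6.71 CPM, from 1 UMI. Whether T and NK cells express Calcb themselves was not tested. So few UMIs do not fix the level of free RNA, and its part in these differences was not tested.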

How the data were processed

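Spinal cord cells from 8 libraries (4 groups of 2) were analysed. The authors deposited raw UMI counts per gene and barcode for each library, made with Cell Ranger 5.0.1 per the file headers on the rat build Rnor_6.0 per the labels; the paper's supplement names another Cell Ranger version. Of 68658 barcodes, cells with more than 10% mitochondrial UMIs, cells over 2 SD from their library's mean in UMIs or genes, and the highest 7.7% of Scrublet doublet scores (scanpy 1.11.5) were left out, and 55455 remained. Cell types were gated by marker genes. The 7 genes and all lists were chosen with earlier results of these data known.

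Counts were summed per library and type (20 or more cells) and tested with edgeR 4.0.16 (TMM, filterByExpr, quasi-likelihood, Benjamini-Hochberg over all genes tested, threshold 0.05) in R 4.3.3, with all 4 groups in a fit, which assumes a common spread. By number, the 8 cords sequenced give 1 per library. Cycling and non-cycling OPCs were compared with library as a block, since both kinds come from the same library. On simulated data for the injured against sham OPC contrast (11293 genes), 16% of genes changed 2-fold and 65% of those changed 4-fold were recovered, with 4 false calls. DESeq2 1.42.0, library size scaling, no filter, a stricter gate, no doublet removal, a 20% mitochondrial limit, thinning to 500 UMIs or none, 50 cells, each library left out and a replicate block were alternatives, as was a fit of non-cycling OPCs (10 or more cells), chosen after seeing the data. From each gene list, up to 4 genes with an adjusted p under 0.05 were named by absolute change, or the 2 highest in OPCs where none passed, and for each of the 7 genes the 3 most correlated; which of these to show was chosen after their values were seen. Promoters and their motifs were read from RefSeq (GRCr8), and the motifs were chosen after the sequences were seen. No coordinates were taken from Rnor_6.0. Intervals cover counting error only.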

Additional observations from a re-analysis of the deposited data

How the results depend on the processing

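The counts of genes past the threshold moved by more than 1.5 times under these settings. With no filter on low counts they were 1652 (injured OPCs, 924 as reported), 1413 (mild, 676), 1468 (moderate, 808), 1791 (severe, 1122), 3122 (macrophages and microglia, 1752) and 1644 (oligodendrocytes, 430). DESeq2 gave 1412 in injured and 1058 in mild OPCs. Non-cycling cells gave 191 in injured, 25 in mild, 146 in moderate and 251 in severe OPCs. A minimum of 50 cells gave 970 in oligodendrocytes. Leaving out 1 library at a time gave 244 to 1441 genes in injured, 49 to 1274 in mild, 232 to 1064 in moderate and 33 to 2091 in severe OPCs, 619 to 2080 in macrophages and microglia, 27 to 970 in oligodendrocytes and 3632 to 4286 in cycling OPCs. Which genes were shared was not counted, and the cause was not tested.

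Replicate numbers did not pair the libraries: deviations of same-numbered libraries correlated between -0.12 and 0.02 in OPCs, -0.23 and 0.24 in macrophages and -0.15 and 0.10 in oligodendrocytes. With a replicate block the counts were 401 in mild OPCs, 1124 in macrophages and 126 in oligodendrocytes, and C1ql1 in severe OPCs had an adjusted p of 0.0584 by the edgeR test, as did Calcb (0.0512) and Ccnd1 (0.0531) in oligodendrocytes. Without the library block the cycling comparison called 1071 genes.

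Directions turned for differences that had not passed. With library size scaling Ccnd1 became -0.011 in injured and -0.033 in cycling OPCs, Vgf -0.042 in mild OPCs, and Tuba1a -0.0018 and Tubb2b -0.21 in macrophages. DESeq2 gave -0.0012 for Vgf in mild, and non-cycling cells gave -0.46 for Vgf and 0.26 for C1ql1 in mild. Over all alternatives, those with 1 library left out among them, the log2 difference ran from -0.79 to 0.92 for Vgf and -0.26 to 0.96 for Ccnd1 in injured OPCs. In mild it ran from -0.031 to 0.74 for Tubb2b, -0.50 to 1.21 for Vgf and -0.019 to 1.19 for Ccnd1, and in moderate from -0.98 to 0.76 for Vgf, -0.092 to 0.71 for Tuba1a and -0.11 to 1.13 for Ccnd1. In severe it ran from -0.91 to 0.78 for Vgf and -0.65 to 0.56 for Ccnd1, and in cycling OPCs from -0.048 to 0.12 for Ccnd1. In macrophages it ran from -0.85 to 0.24 for Ccnd1, -0.20 to 3.10 for Vgf and -0.26 to 0.57 for Tubb2b. In oligodendrocytes it ran from -1.31 to 3.83 for Vgf, which passed at both ends, without sham replicate 2 and without sham replicate 1, and from -1.11 to 8.97 for C1ql1.

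In macrophages and microglia 48.3% of calls were higher, and 26.8% with library size scaling (median of all genes -0.04 and -0.26). In oligodendrocytes the share was 46.7%, and 60.9% with DESeq2. Without doublet removal the mean level in macrophages was 7.16 CPM for Gap43, 7.46 for Vgf, 5.91 for Calcb and 3.71 for C1ql1. Shares of OPCs with a UMI followed depth: thinned to 500 UMIs they were 30.9% for Gap43, 28.3% for Vgf, 19.6% for Calcb, 25.6% for C1ql1, 80.5% for Tuba1a, 40.8% for Tubb2b and 51.8% for Ccnd1, and without thinning 95.5%, 80.4%, 60.5%, 84.4%, 99.7%, 98.6% and 97.0%. In T and NK cells, thinning to 500 UMIs gave 0.266% for Gap43, 7.81% for Tuba1a and 0.532% for Tubb2b, and no thinning gave 1.42% for Vgf, 0.887% for Calcb, 0.621% for C1ql1, 39.6% for Tuba1a, 3.46% for Tubb2b and 2.40% for Ccnd1. Of the fold changes recomputed for the 7 genes, 636 kept their direction and side of the threshold, 52 lost and 25 gained a call, and 29 turned. The sham libraries held 53 and 70 OPCs. In the simulation for the injured against sham contrast, 16% of genes changed 2-fold and 65% of those changed 4-fold were recovered, so small differences could be missed. The part of the number of cells in this was not tested.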
